A study of Hydra vulgaris with 40 samples.

Results

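The body column genes of Hydra vulgaris described here were chosen from a body map of 5 adult tissues. The mean of both libraries plus 1 had to be highest in the body column and at least 1.5 times that of the second tissue, and the body column mean had to be at least 5. Of 17438 genes listed, 118 passed these limits, and the 100 with the largest ratio of body column to second tissue were taken. Values are TPM (a share of transcripts, corrected for transcript length) after adjustment by the authors. Since these values chose the genes, the body map is a description with no test, and tests were run only on regeneration and budding.

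Hydra is a fresh-water polyp whose tube-like body column lies between the head, made of a hypostome (the mouth cone) and tentacles, and the foot. Epithelial stem cells divide along the column and displace tissue towards both ends and into buds, and the column also houses interstitial stem cells and developing stinging cells. After decapitation, column tissue at the cut forms a new head, whereas a bud forms its head while growing out of the budding zone at the lower column.

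The study followed gene expression while a head forms, with 40 RNA-seq libraries, 2 for each of 20 conditions, from fed polyps that had been starved for at least 1 day. The body map held 5 tissues of untreated adults, namely tentacles and hypostome from the head, the body column, the foot and the budding zone. In regeneration, 1 animal per library was bisected at the border of the regions that the labels call R1 and R2, and R2 to R3 was taken at 0 h, early (at 2 h, 4 h and 6 h) or late (at 12 h, 24 h and 48 h). In budding, the head end of the bud was sampled at 8 stages, which were stage 1, stages 3 to 8 and stage 10. No strain, age or sex was used here, and the number of animals per body map or bud library is not given in the sources used here.

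Sums per library lay between 997030 and 1014380, and between 164 and 1284 genes per library were listed at 0. Both libraries of 18 of the 20 conditions held the same sorted values. The exceptions were bud stages 6 and 7, where replicate 2 of stage 6 shared its sorted values with replicate 1 of stage 7. Whether these 4 libraries carry their own stage was not tested, and each bud test is also given without them. Spearman's correlation between replicates over all genes was 0.953 at 4 h, 0.955 at 12 h and 0.961 at 24 h. All of these lay below the correlations at 0 h, 6 h and 48 h, and only that at 2 h was lower. The genes carry only gene model identifiers, which the files do not pair with names. None of the 17438 identifiers matched the annotation of another assembly, so tissue labels were not checked against marker genes, and no sequence or function is given.

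In the body map, the 100 body column genes formed a gradient that fell from the body column to the budding zone and was low elsewhere. Their body column means ran from 5.2 to 4311.76 with a median of 16.3, and 22 genes reached at least 100 whereas 57 were under 20. The median over the 100 genes was 4.77 in the budding zone, 0.715 in the foot, 0.78 in the hypostome and 0 in the tentacles. The second tissue was the budding zone for 84 genes, the tentacles for 7, the hypostome for 5 and the foot for 4. The 84 include Sc4wPfr_1400.g6659, which was at 0 in all other tissues, so that its second tissue is a tie. In 83 genes the budding zone mean was below that of the body column and above the rest. In bulk tissue, fewer cells of a type and less RNA per cell cannot be told apart.

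**Figure D1:**
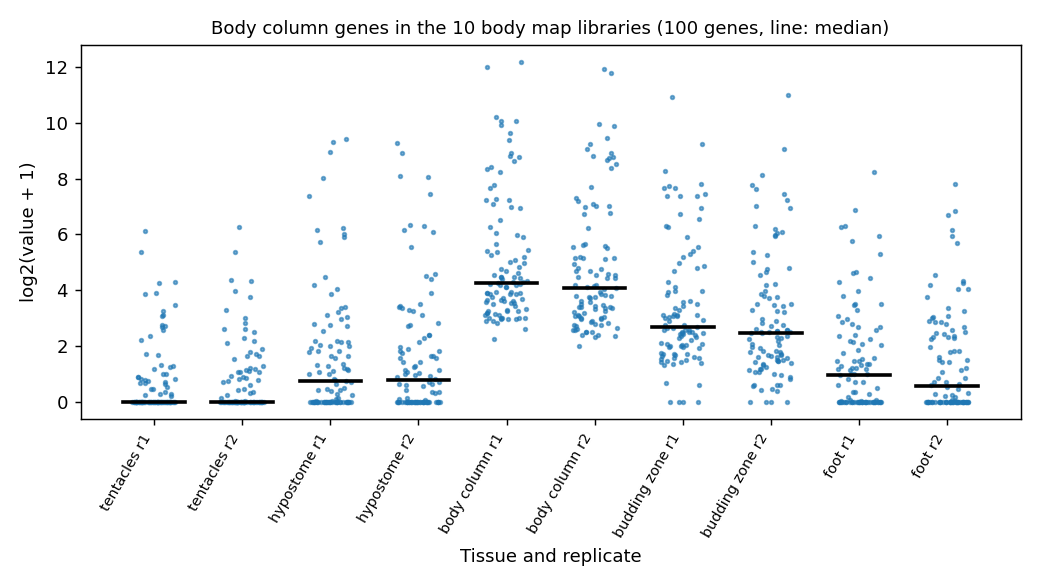
Levels of the 100 body column genes, as log2(value + 1), in each of the 10 body map libraries, where r1 and r2 are the replicates, each point is a gene and each line is the median. The medians are highest in the body column, intermediate in the budding zone and at or near 0 in the tentacles.

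Many of the genes were listed at 0 outside the trunk, as the rule favours. Both tentacle libraries were at 0 for 51 of the 100, both hypostome libraries for 35, both foot libraries for 34 and both budding zone libraries for 2. Of all 17438 genes, 684 were at 0 in both tentacle libraries, 396 in both hypostome libraries, 425 in both foot libraries and 570 in both budding zone libraries. Both body column libraries exceeded the other 8 in 98 of the 100 genes, against 4.9% of all genes, a count that the rule itself favours. The higher body column library was 1.00 to 2.93 times the lower one, with a median of 1.32.

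Sc4wPfr_1400.g6659 had the largest ratio. It measured 1076.28 and 935.31 in the body column, and it was listed at 0 in the other 8 body map libraries. It was nevertheless above 0 in all 14 regeneration libraries, from 385.23 to 1430.44. The 16 bud libraries listed it from 435.7 to 783.5, but bud levels were not compared with the body map, as explained below.

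The next largest ratio was that of Sc4wPfr_794.g24590, with 49.49 and 25.03 in the body column. It measured 4.97 and 0 in the budding zone and 0 in the other tissues. The highest level belonged to Sc4wPfr_2017.1.g26848, with 4684.7 and 3938.82 in the body column. It skipped the budding zone, where it was listed at 0 as in the foot and tentacles, and its second tissue was the hypostome with 692.62 and 617.32. Sc4wPfr_443.2.g30193 followed with 4066.84 and 3499.8 in the body column. Its budding zone values were 1962.9 and 2033.85, and those of the hypostome 633.24 and 266.07. Both of these abundant genes were also high in every regeneration library, from 3129.28 to 7657.76 and from 2646.63 to 5749.27, respectively.

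The limit of 100 fell in a continuous run of ratios. The last gene inside, Sc4wPfr_2009.g19354, had a ratio of 1.61 and a body column mean of 25.2 ± 2.23 (SD, n = 2). The first gene outside, Sc4wPfr_41.g30764, had a ratio of 1.61 as well and a body column mean of 2217 ± 176 (SD, n = 2). Over the 100 genes the median ratio was 2.5, with at least 3 in 43 genes and at least 2 in 69. With replicate 1 alone, 156 genes passed the limits and 93 of the 100 were among them, and with replicate 2 alone 137 passed and 86 of the 100 were among them.

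The 100 genes lay on 86 scaffolds of the 1527 that carry listed genes. Of these scaffolds, 10 carried several body column genes, 24 in all, and 12 genes formed 6 pairs with consecutive gene numbers. Sc4wPfr_519 carried 4 of the 100 among its 36 listed genes. Near-identical neighbouring copies could share reads, and this was not tested.

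In regeneration, 38 of the genes stood out in 3 libraries of different times. In 38 of the 100 genes, replicate 2 of 4 h, 12 h and 24 h all lay above the other 11 regeneration libraries, against 0.499% of all genes. This grouping was made after the values were seen, and it is given with no test. The median of the 38 was 8.89 in replicate 2 of 4 h, 4.21 in replicate 2 of 12 h and 2.83 in replicate 2 of 24 h. It was 0.215 in replicate 2 of 2 h and 0 in the other 10 libraries, including the other replicate of each of the 3 time points. Each regeneration library came from 1 animal, so that animal and library cannot be told apart.

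**Figure D2:**
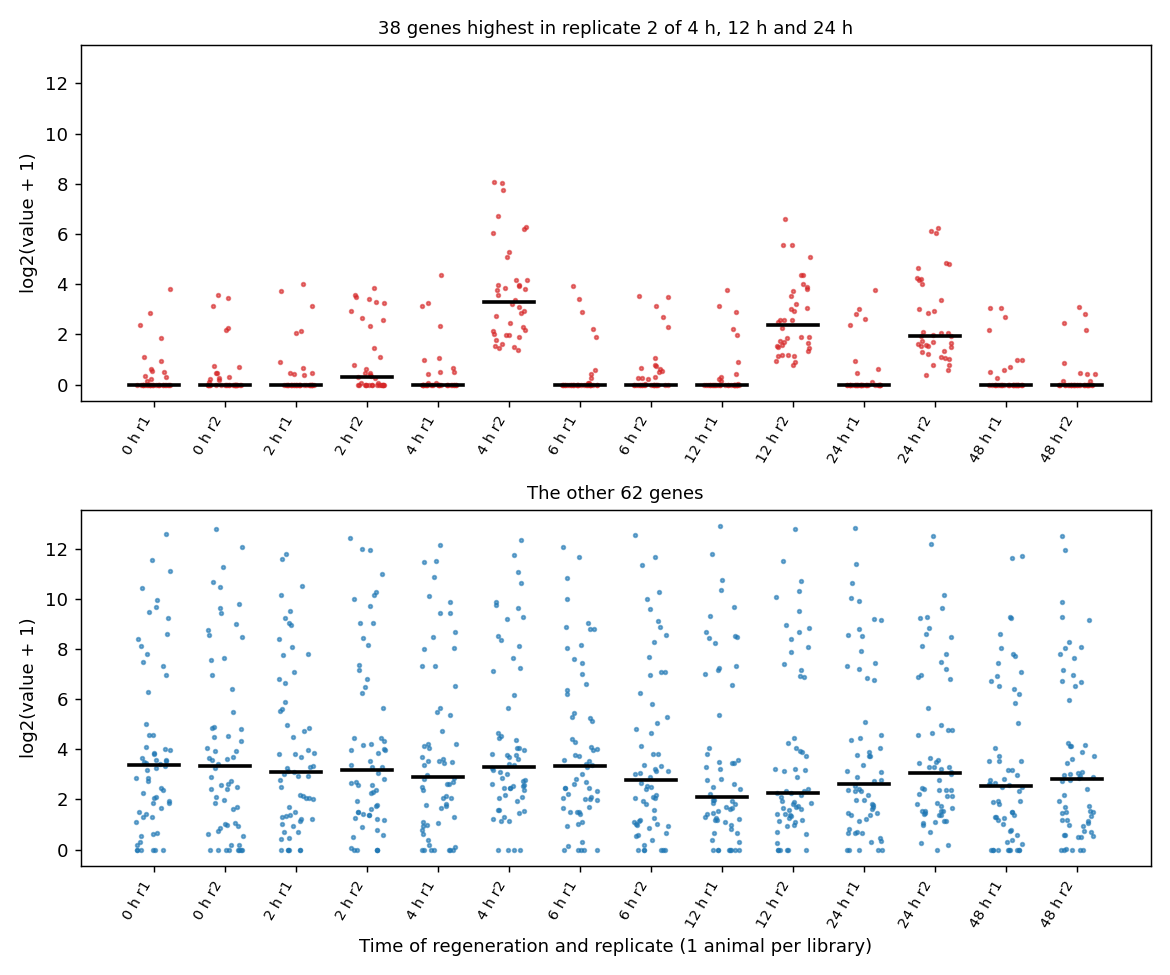
Levels of the body column genes, as log2(value + 1), in the 14 regeneration libraries, where r1 and r2 are the replicates, each point is a gene and each line is the median. The 38 genes (top) stand out in replicate 2 of 4 h, 12 h and 24 h, with medians of 8.89, 4.21 and 2.83 before the logarithm, whereas the other 62 (bottom) have medians from 3.29 to 9.30 in all libraries.

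Among the 14 regeneration libraries, the same 3 were the only ones in which nearly all of the 100 genes were detected. Between 1 and 6 genes were at 0 in the 3 libraries, and between 21 and 38 in each of the other 11. Of the 100, 19 were at least 1 in all 3 libraries and under 1 in the other 11, against 0.132% of all genes. Replicate 2 of 4 h was the highest of the 14 libraries in 50 of the 100 genes, against 6.82% of all genes. The 38 were grouped by these same libraries, which favours these counts, so that they are no separate result.

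Sc4wPfr_794.g24590 is an example. It was listed at 0 in 10 of the regeneration libraries, and it measured 14.01 in replicate 2 of 4 h, 1.71 in replicate 2 of 12 h, 1.92 in replicate 2 of 24 h and 0.52 in replicate 2 of 2 h. Over the 14 libraries, the log2 values of the 38 genes had a median Pearson's r of 0.929 with this gene, and the lowest was 0.579. None of the other 62 had an r above 0.9, and their median was 0.199. These points share the libraries that defined the group, so r is a description of likeness only.

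Summed over the 38 genes, the 3 libraries gave 1342.08, 408.23 and 427.49, and the other 11 gave 23.65 to 88.91. The body column libraries gave 4423.35 and 2608.43 and those of the budding zone 955.86 and 384.49. The foot, hypostome and tentacle libraries gave 30.31 to 44.02. In 10 of the other 11 regeneration libraries the sum did not exceed 44.65. Abundant genes weigh most in such sums. The highest body column mean of the 38 was 798.525, which was 22.7% of their summed means, and the median was 16.77.

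**Figure D3:**
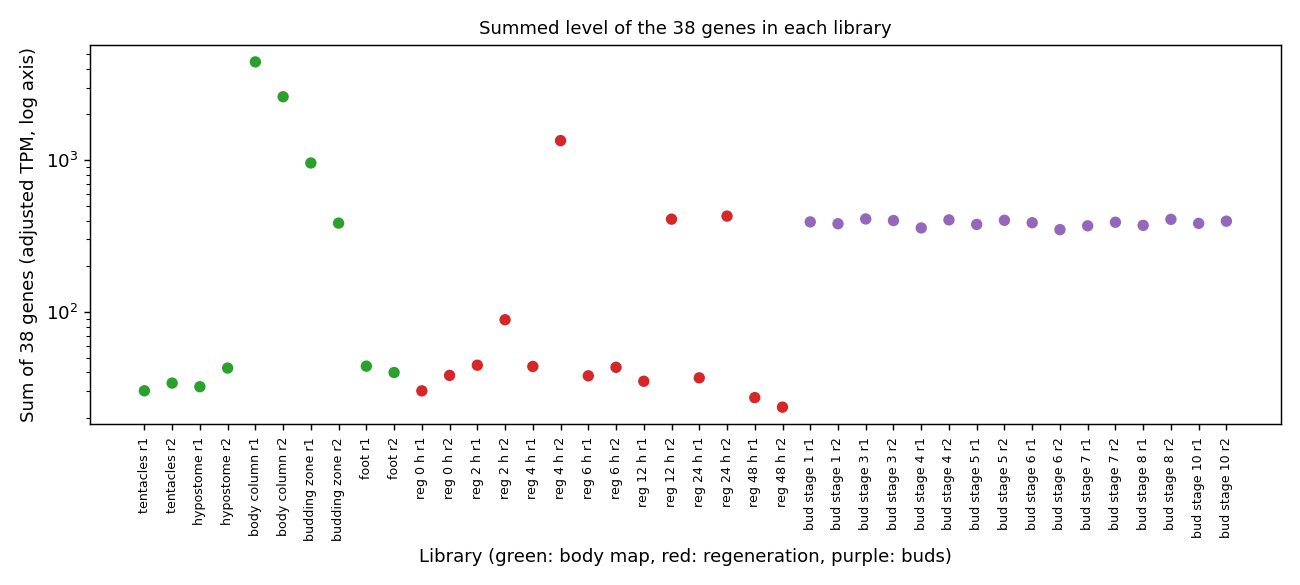
Sum of the 38 genes in each of the 40 libraries, on a log axis in adjusted TPM, with body map libraries in green, regeneration in red and buds in purple. Replicate 2 of 4 h (1342.08), 12 h (408.23) and 24 h (427.49) lie above the other regeneration libraries, and the 16 bud libraries lie between 348.27 and 409.53. Bud sums are not compared with the others, since bud means lay close to the mean over the 24 other libraries.

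The 38 genes also varied between replicates in the trunk. In the body column, replicate 1 exceeded replicate 2 in 36 of the 38, with a median ratio of 1.65. The same held for 36 of the 38 in the budding zone, with a median ratio of 2.21. Among the other 62 genes, replicate 1 was the higher in 38 and 39, respectively. The share over all genes was not taken, so that these counts are not read as a trait of the 38. The 38 were at 0 in all 6 foot, hypostome and tentacle libraries in 17 cases, and the other 62 in 5. Of all 17438 genes, 49 were at 0 in all 6, and the rule itself favours such listings. Of the 50 genes with the largest ratio in the body map, 32 belonged to the 38, and all 4 genes of Sc4wPfr_519 did.

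At 0 h, the level was a median of 51.5% of the body column mean in the 62 and 0% in the 38, where the highest was 28.4%. The grouping itself sets the 0 h libraries of the 38 below 3 others, so that this is no separate result. Of the 100, 26 genes were listed at 0 in both 0 h libraries, 21 of them among the 38 and 5 among the 62. Of all genes with a body column mean of at least 5, 0.466% were listed at 0 in both. The 16 genes outside the 38 with a body column mean of at least 100 stayed abundant, with 0 h levels between 56.7% and 267% of the body column mean and a median of 130%.

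Over the 7 time points, 99 of the 100 genes could be tested with limma for a slope per step on the log2(value + 1) scale, with p-values adjusted over all 17287 genes fitted. Of these, 17 fell, against a background of 16.9% of all genes, and 2 rose, against 10%. The share that fell was near the background. The median slope was -0.01 in the 99 genes and -0.01 in all genes. None of the 17 that fell was among the 38. The grouping sets the 0 h libraries of the 38 below 3 later ones, so that this is no separate result. The budding zone was the second tissue of 15 of the 17, against 84 of all 100 body column genes.

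The 17 genes that fell had their lowest mean at 48 h in 16 cases and at 12 h in 1. They were chosen for a fall over these same libraries, so that a high start and a low end are no separate result. Their highest mean lay at 0 h in 6, at 2 h in 3, at 4 h in 7 and at 6 h in 1. At 48 h they were at 0 to 64.4% of their 0 h level, with a median of 34.8%, and both 0 h libraries lay above both 48 h libraries in 16 of them. This order was found in 38 of all 100 body column genes, against 37.2% of all genes.

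Sc4wPfr_634.1.g17848 fell most. It measured 22.43 and 22.13 at 0 h, 14.86 and 19.02 at 2 h, 11.94 and 12.57 at 4 h and 12.46 and 7.17 at 6 h. It then measured 0.3 and 1.7 at 12 h, 1.63 and 1.18 at 24 h and 0 and 1.18 at 48 h. The libraries up to 6 h did not overlap with the later ones. Its slope was -0.73 per step (SE 0.08, limma adjusted p = 0.000517). In the body column it measured 13.39 and 9.46.

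Sc4wPfr_17.g15881 was the next. It measured 10.84 and 4.33 at 0 h, 6.64 and 2.09 at 2 h, 0.55 and 7 at 4 h and 4.53 and 3.12 at 6 h, and then 1.4 and 0 at 12 h, 0 and 1.57 at 24 h and 0 in both libraries at 48 h. Its slope was -0.48 (SE 0.10, limma adjusted p = 0.00486), and the early and late libraries overlapped through the 0.55 at 4 h. Both calls held in fits without each library in turn.

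**Figure D4:**
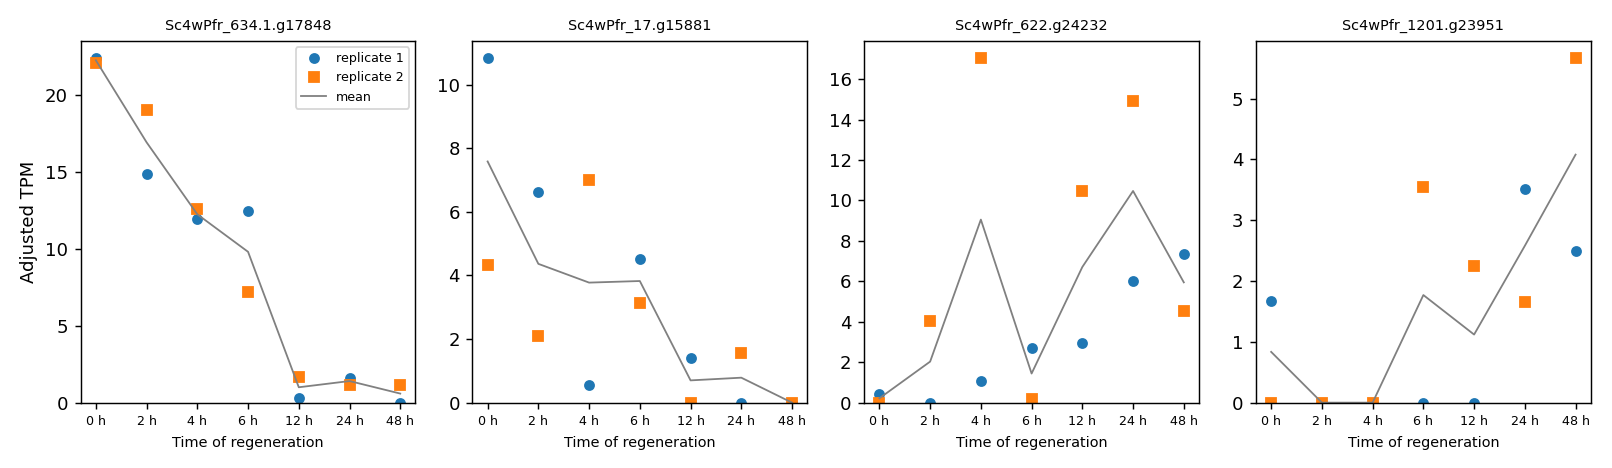
Adjusted TPM of the 2 body column genes that fell most (left) and the 2 that rose (right) by time of regeneration, with replicate 1 as circles, replicate 2 as squares and the mean as a line. Sc4wPfr_634.1.g17848 drops from 22.28 at 0 h to 1 at 12 h, and Sc4wPfr_622.g24232 has its highest values in replicate 2 of 4 h and 24 h.

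The 2 genes that rose were low at the start. Sc4wPfr_622.g24232, one of the 38, measured 0.43 and 0 at 0 h, 0 and 4.06 at 2 h, 1.06 and 17.05 at 4 h, 2.68 and 0.2 at 6 h, 2.96 and 10.46 at 12 h, 6 and 14.94 at 24 h and 7.37 and 4.53 at 48 h. Both 48 h libraries lay above both 0 h libraries, and its slope was 0.43 (SE 0.14, limma adjusted p = 0.0388). Sc4wPfr_1201.g23951 measured 1.67 and 0 at 0 h, 0 in all libraries at 2 h and 4 h, 0 and 3.54 at 6 h, 0 and 2.24 at 12 h, 3.51 and 1.65 at 24 h and 2.49 and 5.67 at 48 h. Its slope was 0.33 (SE 0.10, limma adjusted p = 0.0301). In the body map, the second tissue of both genes was the tentacles, as for 7 of the 100. Sc4wPfr_622.g24232 measured 13.65 and 18.86 there, and Sc4wPfr_1201.g23951 measured 3.63 and 3.56. In regeneration, Sc4wPfr_622.g24232 did not reach its body column values of 65.67 and 45.81. Of the 48 h values of Sc4wPfr_1201.g23951, 5.67 lay between its body column values of 5.17 and 10.09, and 2.49 lay below both.

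Both rises depended on single libraries. The call for Sc4wPfr_622.g24232 was lost without replicate 1 or replicate 2 of 0 h, replicate 1 of 2 h, 4 h or 48 h, replicate 2 of 12 h, or either replicate of 24 h, with limma adjusted p from 0.0527 to 0.0983. That for Sc4wPfr_1201.g23951 was lost without replicate 2 of 0 h, either replicate of 2 h, replicate 1 of 24 h or either replicate of 48 h, with adjusted p from 0.0543 to 0.0983. Without replicate 2 of 4 h, 12 h and 24 h together, 83 genes could be fitted, of which 14 fell and 2 rose. The call for Sc4wPfr_1201.g23951 was lost there as well, with an adjusted p of 0.075. With log2(hours + 1) for the order Sc4wPfr_1201.g23951 had an adjusted p of 0.0524, and with hours Sc4wPfr_622.g24232 had 0.148.

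In the first 2 h, no body column gene passed the limma test in either direction, against 0.185% of all genes that rose and 0.0347% that fell. At an unadjusted p under 0.05 there were 6 of 99, and 1569 of all 17287 genes. At 48 h against 0 h, 18 genes fell, against 11.1% of all genes, and none rose, against 9.84%, with 26 of 99 at an unadjusted p under 0.05, and 5949 of all 17287 genes. The 18 differences on the log2(value + 1) scale ran from -3.98 to -0.63 with a median of -1.47, and 15 of the 18 also fell over the whole course. Only 1 of the 18 was among the 38. The grouping sets both the 0 h and the 48 h libraries of the 38 below 3 others, so that this is no separate result.

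Sc4wPfr_634.1.g17848 again fell most, by 3.98 on the log2(value + 1) scale (SE 0.42, limma adjusted p = 0.000394). Sc4wPfr_17.g15881, listed at 0 in both 48 h libraries, followed (limma adjusted p = 0.0286). The latter call was lost without any 1 of the 4 libraries of 0 h and 48 h, with adjusted p from 0.065 to 0.148. Without replicate 2 of 0 h 6 genes fell, and without replicate 1 of 48 h 5 fell. Without replicate 1 of 0 h, 1 gene rose, and without replicate 2 of 4 h, 12 h and 24 h together 2 rose and 18 fell.

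Bud values carried a different limit. The bud mean of each body column gene was close to its mean over the 24 other libraries, with log2 ratios of bud to other mean from -0.37 to 0.21 and a median of -0.13. Over all genes the median of this log2 ratio was -0.03 and its SD 0.14. The level of a gene in buds was therefore not compared with its level in the body column. The authors removed batch effects, and the part of that step in this closeness was not tested.

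Within the buds, many of the 38 genes varied little, but not all. The limit on bud levels holds here as well, so that a steady value above 0 is not read as expression in buds. The part of the authors' adjustment in these steady values was not tested. The SD over the 14 regeneration libraries was a median of 205% of the mean in the 38, which the grouping itself makes large. Over the 16 bud libraries the median was 9.94%. The SD was under 10% of the mean in 19 of the 38 and in 10 of the other 62, against 9.97% of all genes. Sc4wPfr_794.g24590, for instance, stayed between 2.93 and 3.65 in all 16 bud libraries. The medians of the 38 lay between 1.87 and 2.52 in the bud libraries. Of the 100 genes, 12 were at 0 in at least 1 bud library.

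Over the 8 bud stages, 2 of the 100 genes rose, against 6.22% of the 17438 genes fitted, and 1 fell, against 0.304%. After quantile normalization of the bud libraries, 3 rose and 20 fell, with 978 and 1587 of all genes, and the median slope of all genes moved from 0.01 to -0.02. Sc4wPfr_177.1.g6182, one of the 38, was listed at 0 in both stage 1 libraries and measured 1.04 and 28.72 at stage 3, 0 and 8.79 at stage 4, 9.47 and 17 at stage 5 and 33.3 and 5.12 at stage 6. It then measured 13.54 and 3.02 at stage 7, 22.71 and 36.8 at stage 8 and 20.87 and 41.51 at stage 10. The late stages were higher than stage 1 throughout, with wide gaps between replicates, and the slope was 0.57 per stage (SE 0.15, limma adjusted p = 0.0388).

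Sc4wPfr_1357.1.g3220 measured 74.2 and 79.67 at stage 1, 109.92 and 335.78 at stage 3, 103.29 and 132.87 at stage 4 and 236.57 and 270.27 at stage 5. It continued with 259.75 and 236.43 at stage 6, 182.92 and 168 at stage 7, 353.23 and 295.59 at stage 8 and 258.16 and 276.54 at stage 10. Stage 1 lay below every other library, and the slope was 0.21 (SE 0.06, limma adjusted p = 0.0400). In the body column the gene measured 299.16 and 331.55, which was not compared with the bud levels.

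Sc4wPfr_366.g23802, also one of the 38, was the gene that fell. It measured 21.05 and 28.61 at stage 1, 17.94 and 14.87 at stage 3, 14.44 and 20.29 at stage 4, 12.22 and 8.92 at stage 5, 3.84 and 10.2 at stage 6, 15.5 and 16.41 at stage 7, 4.39 and 4.93 at stage 8 and 6.01 and 9.3 at stage 10. Both stage 1 libraries were above all others, and the slope was -0.24 (SE 0.06, limma adjusted p = 0.0342).

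**Figure D5:**
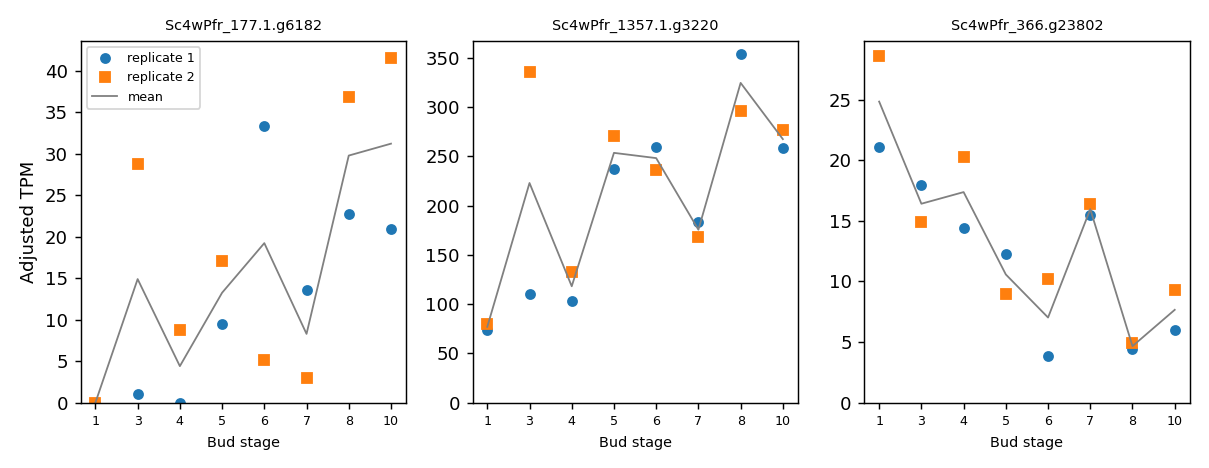
Adjusted TPM of the 3 body column genes that passed the test over bud stages, with replicate 1 as circles, replicate 2 as squares and the mean as a line. Sc4wPfr_177.1.g6182 and Sc4wPfr_1357.1.g3220 are lowest at stage 1, at 0 and 76.9 on average, and Sc4wPfr_366.g23802 is highest there, at 24.8.

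All 3 bud calls were lost without either replicate of stage 1 or of stage 8 or without replicate 1 of stage 10. The calls for Sc4wPfr_177.1.g6182 and Sc4wPfr_1357.1.g3220 were also lost without replicate 1 of stage 3 or replicate 2 of stage 10. The limma adjusted p in these fits ran from 0.0518 to 0.153. Without stages 6 and 7 the 3 calls held, with 3 genes that rose and 2 that fell. Without replicate 2 of stage 3, 4 rose and 2 fell, and without replicate 2 of stage 7, 4 rose. After median-ratio scaling the call for Sc4wPfr_1357.1.g3220 was lost, with an adjusted p of 0.0587.

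At stage 10 against stage 1, 2 genes rose, against 7.21% of all genes, and 1 fell, against 0.447%. After median-ratio scaling, 1 rose and 1 fell, and Sc4wPfr_2017.1.g26848 had an adjusted p of 0.0702. Sc4wPfr_1357.1.g3220 rose by 1.78 (SE 0.39, limma adjusted p = 0.0236) on the log2(value + 1) scale, and Sc4wPfr_366.g23802 fell by 1.59 (SE 0.37, limma adjusted p = 0.0305). Sc4wPfr_2017.1.g26848, the most abundant of the 100, rose by 1.01 (SE 0.23, limma adjusted p = 0.0258), from 2043.96 and 1995.91 at stage 1 to 4457.33 and 3697.05 at stage 10. The replicates of the 2 stages did not overlap in these genes. Each of the 3 calls was lost without any 1 of the 4 libraries of stages 1 and 10, and that for Sc4wPfr_366.g23802 also without either replicate of stage 8, with limma adjusted p from 0.0501 to 0.18. Without stages 6 and 7 the 3 calls held.

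Whether a gene moved differently in regeneration and in budding was tested as the difference of the trends, from the first to the last condition of each course. The trend in regeneration was more negative than that in budding in 10 of the 100 genes, against 7.35% of all genes, and more positive in 1, against 2.51%. Of the 10, 7 had also fallen over regeneration. The difference was -4.25 (SE 0.49, limma adjusted p = 5.74e-06) for Sc4wPfr_634.1.g17848 and -4.14 (SE 1.25, limma adjusted p = 0.0338) for Sc4wPfr_177.1.g6182 on the log2(value + 1) scale. The gene with the more positive trend in regeneration was Sc4wPfr_1201.g23951, with a difference of 2.06 (SE 0.64, limma adjusted p = 0.0404).

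The difference for Sc4wPfr_634.1.g17848 held in fits without each library in turn. The call for Sc4wPfr_177.1.g6182 was lost without either replicate of bud stage 1, replicate 2 of bud stage 8 or 10, replicate 2 of 2 h, replicate 1 of 24 h or either replicate of 48 h, with limma adjusted p from 0.0512 to 0.0818. It was also lost after quantile normalization and median-ratio scaling, with 0.0551 and 0.0563. That for Sc4wPfr_1201.g23951 was lost in 12 such fits, those without replicate 1 of bud stage 1 or 8, either replicate of bud stage 10, 2 h or 48 h, replicate 2 of 0 h or 12 h, or replicate 1 of 4 h or 24 h, with limma adjusted p from 0.0507 to 0.0927. It was also lost without replicate 2 of 4 h, 12 h and 24 h together, with an adjusted p of 0.0731. Without replicate 1 or 2 of bud stage 1, replicate 2 of bud stage 8, replicate 2 of 2 h or replicate 1 of 48 h, 6 genes had the more negative trend. Without bud stages 6 and 7, 10 had the more negative and 2 the more positive trend. No gene passed both the regeneration and the bud trend.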

How the data were processed

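The values deposited by the authors were a TPM-like signal, adjusted after quantification. Reads had been trimmed (Trimmomatic 0.35), mapped to a transcriptome (Bowtie 1.2) and quantified as TPM (RSEM 1.2.31). According to the methods of the study, ComBat then removed batch effects and qsmooth was used for smooth quantile normalization. Which of these steps lie behind the deposited signal was not tested. The tests had been planned for TPM and were kept for these values. Read counts were not used, so that depth per sample is unknown and no counting interval is given. All 40 columns were matched to samples by name, and 0 columns of other samples were left out.

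Genes above 0 in at least 2 fitted samples were analysed as log2(value + 1) with limma 3.58.1 in R 4.3.3 with a trended prior. Slopes used the order of time points or stages, single contrasts shared the spread of their course, and the difference of trends was an interaction with order scaled from first to last. Tests were two-sided, with Benjamini-Hochberg adjustment over all genes and a threshold of 0.05. The study calls its replicates biological, and regeneration replicates came from separate animals. For the other samples the number of animals is not given in the sources used here, and p-values measure the spread between these samples. Shared sorted values within conditions may make them too small. The fits were tested on simulated data.

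Members, lists and tests were chosen with earlier results of these data known. Genes named were the 2 with the largest ratio, the 2 with the highest body column mean, the last inside and first outside the limit, and for each test the 2 largest rises and falls past the threshold. All others are given as counts. The alternatives comprised quantile normalization, median-ratio scaling, 0.1 as pseudocount, a filter requiring 1 or more in 2 samples, hours or stage number for the order, the replicate number as a block, 50 genes, ratios with no value added, and leaving out each sample. Leaving out replicate 2 of 4 h, 12 h and 24 h together, or bud stages 6 and 7, was added after seeing the data. Figures were drawn with matplotlib 3.10.9, and tables were handled with numpy 2.4.6 and pandas 2.3.3 in Python 3.11.15.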

Additional observations from a re-analysis of the deposited data

Results flagged for a closer look

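The trends of regeneration and budding differed by their own test in 11 of the 100 body column genes, with a more positive trend in regeneration in 1 and a more negative trend in 10. Sc4wPfr_1201.g23951 differed by 2.06, Sc4wPfr_634.1.g17848 by -4.25 and Sc4wPfr_177.1.g6182 by -4.14 on the log2(value + 1) scale from the first to the last condition (limma interaction). No group had 4 or more samples, so that single samples far from their group were not tested.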

How the results depend on the processing

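No difference or slope of a named gene changed sign under any alternative. Median-ratio scaling left 11 genes that fell over regeneration, 1 that rose over budding, 1 that rose at 48 h against 0 h, 1 that rose at stage 10 against stage 1, and 6 with a more negative trend in regeneration than in budding. Quantile normalization gave 20 that fell and 3 that rose over budding, where 1 had fallen and 2 had risen without it, and 6 with the more negative trend. These scalings moved the median difference of the trends over all genes from -0.19 to 0.02 and -0.01, respectively, and quantile normalization moved the median difference of stage 10 against stage 1 from 0.05 to -0.19. With log2(hours + 1) or hours for the order, 1 gene rose over regeneration, and with the stage number 4 rose over budding. Among the 50 genes of largest ratio, 2 fell and 1 rose over regeneration, and 0 fell and 1 rose over budding.

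Without replicate 2 of 4 h, 12 h and 24 h together, 0 genes had the more positive trend in regeneration and 2 rose at 48 h against 0 h. Without bud stages 6 and 7, 2 fell over budding and 2 had the more positive trend in regeneration. Both settings were chosen after seeing the data.

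In fits without each library in turn, 12 to 17 genes fell and 0 to 3 rose over regeneration, 5 to 19 fell and 0 to 1 rose at 48 h against 0 h, and 0 rose or fell at 2 h against 0 h. Over budding, 0 to 4 rose and 0 to 2 fell, and 0 to 3 rose and 0 to 1 fell at stage 10 against stage 1. The more negative trend in regeneration was called in 6 to 13 genes and the more positive in 0 to 1. A rise over regeneration was called in 0 genes without replicate 2 of 0 h or replicate 1 of 2 h, 24 h or 48 h, and in 1 without replicate 2 of 2 h, 12 h, 24 h or 48 h or replicate 1 of 4 h.

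The replicate number as a block gave 16 genes that fell and 2 that rose over regeneration, 2 that rose and 1 that fell over budding, 19 that fell at 48 h against 0 h, and 8 with the more negative trend. The deviations of same-numbered libraries correlated above 0.1 in 4 of 21 pairs of time points, 3 of 28 pairs of bud stages and 1 of 10 pairs of tissues. A condition correlated best with its own number in 4 of 7 time points, 2 of 8 stages and 2 of 5 tissues, so that no general pairing by number was seen. Whether some same-numbered libraries share an origin was not tested.

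With 2 libraries a condition and no depth, low values carry an unknown error, and a listing at 0 is not an absence. The cause of the changes between settings was not tested.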
